A study of Mus musculus with 20 samples.

Results

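In all, 9 genes of B cells and of the antibody were followed on expression arrays of mouse skin: Cd22, Cd79a, Cd79b, Ms4a1, Jchain, Bank1, Pax5, Blk and Ighm. Taken were all probe-sets (the groups of short probes that each give 1 value on the array) annotated to 1 of these symbols and to no other gene, which gave 22 probe-sets for 9 of the 18194 genes on the array. Of these 22, 16 probe-sets of 7 genes passed the filter on low or constant values and were tested, among 30960 tested probe-sets in all. Ighm alone had 11 probe-sets, of which 8 were tested. A further 4 probe-sets that name Ighm together with other genes were not used.

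Skin came from 20 female C57BL/6 mice, 6 weeks old when bought, 1 array for each mouse and 5 mice in each of 4 groups. Naïve mice were untreated. In the other 15, IL-23, a cytokine that drives a psoriasis-like inflammation, was injected into the skin of the back at 3 µg a day on days 1 to 4, and on days 4, 5 and 6 they received saline, the oligonucleotide IMO-3100 (an antagonist of Toll-like receptors 7 and 9) or the oligonucleotide IMO-8400 (an antagonist of Toll-like receptors 7, 8 and 9), each antagonist at 15 mg/kg, under the skin at a distance from the IL-23 site. Full-thickness skin of the injected site was taken on day 7. The model is short, in 1 inbred strain, and no group was injected without IL-23, so injection and IL-23 cannot be told apart.

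B cells carry a surface antibody, the B cell receptor, whose heavy chain in its first form is the µ chain encoded by Ighm. The receptor signals through the paired chains Cd79a and Cd79b, and kinases of the Src family such as Blk start the signal, the adaptor Bank1 links it to further kinases, and Cd22 dampens it. Ms4a1 encodes CD20, a membrane protein of mature B cells that plasma cells lose, and Pax5 is the transcription factor that holds the B cell identity and is switched off in plasma cells. Plasma cells secrete the antibody, and Jchain joins IgM and IgA into polymers. Normal skin holds few B cells, while antibody-secreting cells can enter inflamed skin.

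Expression is given as the log2 value of the GCRMA summary, in which 1 unit is a 2-fold difference and the lowest value on every array was 2.02. A group is called near background here when all 5 of its values were below 3. Bulk skin was measured, so fewer cells of a type and less RNA per cell cannot be told apart. Levels of different probe-sets depend on their probes and are not compared with each other.

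For the members with a RefSeq promoter window of the mouse genome GRCm38.p6 (5 of 9 genes, 250 bases before to 50 after the start), 3 short motifs were searched on both strands: the octamer ATGCAAAT bound by Oct factors, the E-box CAGGTG bound by E proteins, and the PU box GAGGAA bound by factors such as Spi1. The windows of Jchain (the member with the largest rise, below), Cd22 and Bank1 (members that moved apart from each other) and Cd79a (a member that stayed near background) are shown, 5′ to 3′ on the strand of the gene, with the motif matches in capitals.
Jchain, chr5:88527848-88528147, minus strand: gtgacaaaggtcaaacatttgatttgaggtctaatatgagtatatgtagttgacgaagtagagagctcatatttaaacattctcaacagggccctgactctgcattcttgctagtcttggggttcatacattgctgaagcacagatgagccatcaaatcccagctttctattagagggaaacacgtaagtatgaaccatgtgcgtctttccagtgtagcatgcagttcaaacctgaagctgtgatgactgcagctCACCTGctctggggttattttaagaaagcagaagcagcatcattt
Cd22, chr7:30878979-30879278, minus strand: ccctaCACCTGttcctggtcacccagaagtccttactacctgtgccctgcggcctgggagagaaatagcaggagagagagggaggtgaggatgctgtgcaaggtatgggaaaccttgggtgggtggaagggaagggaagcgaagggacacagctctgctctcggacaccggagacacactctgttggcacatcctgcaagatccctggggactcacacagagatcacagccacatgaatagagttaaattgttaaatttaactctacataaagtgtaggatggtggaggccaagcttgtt
Bank1, chr3:136326017-136326316, minus strand: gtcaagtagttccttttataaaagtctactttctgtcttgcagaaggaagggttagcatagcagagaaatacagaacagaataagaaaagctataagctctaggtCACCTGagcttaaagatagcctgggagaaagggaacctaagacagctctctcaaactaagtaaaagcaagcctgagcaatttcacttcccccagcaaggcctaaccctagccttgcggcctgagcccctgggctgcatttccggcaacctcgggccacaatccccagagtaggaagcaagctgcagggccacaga
Cd79a, chr7:24897247-24897546, plus strand: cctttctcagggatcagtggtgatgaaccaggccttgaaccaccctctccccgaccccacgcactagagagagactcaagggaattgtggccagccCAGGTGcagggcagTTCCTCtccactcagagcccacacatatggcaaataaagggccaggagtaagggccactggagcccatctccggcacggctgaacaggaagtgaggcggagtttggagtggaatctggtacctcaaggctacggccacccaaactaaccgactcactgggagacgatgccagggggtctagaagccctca
Each of these 4 windows held 1 E-box, read as CACCTG or its reverse complement CAGGTG, which 20.2% of all 32851 mouse windows of this length also hold. Cd79a also held TTCCTC, the reverse complement of the PU box, found in 28.3% of all windows. No octamer was in the 5 windows, against 1.74% of all windows, and the window of Pax5, chr4:44710645-44710944 on the minus strand, held none of the 3 motifs. The same E-box letters were in the windows of Jchain and Cd22, which rose with IL-23, and in that of Cd79a, which stayed near background. Whether these motifs bear on expression was not tested.

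The arrays had medians between 6.09 and 6.29, and any pair of arrays correlated at 0.943 or above over all probe-sets. The naïve mice differed among themselves in 19 genes of the hair shaft and growing follicle, whose mean ran from 3.51 (replicate 20) to 13.3 (replicate 16). In the other groups that mean was between 2.90 and 3.26 in 14 of 15 mice and 6.22 in replicate 5 of IMO-8400. Results that rest on naïve replicates 16 and 17, the highest in this list, are therefore also given without them. The question in each comparison was how IL-23 and then each antagonist shifted B cell and antibody RNA in the skin.

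IL-23-injected skin treated with saline had far more RNA of antibody and B cell receptor genes than naïve skin. Of the 16 tested member probe-sets, 9 rose and 4 fell (limma, false discovery rate, FDR, under 0.05 and fold change, FCH, over 2), against 7.58% of all tested probe-sets that rose and 8.92% that fell. The 9 that rose covered 6 genes: Jchain, Cd79b, Cd22, Blk, Ms4a1 and Ighm, the last through 2 of its probe-sets. The 4 that fell were all annotated to Ighm. The median log2 difference over the 16 was 1.61, against -0.04 over all tested probe-sets, and with the brightest probe-set of each gene it was 2.84 over 7 genes.

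Jchain, the joining chain of secreted IgM and IgA, had the largest rise of the members. Its log2 values were 3.27, 5.23, 4.61, 4.05 and 4.36 in naïve mice and 12.40, 9.63, 9.17, 12.29 and 11.27 in saline mice. The groups were far apart, though replicates 12 and 13 of saline (9.63 and 9.17) were the lowest of their group. The difference was 6.65 ± 0.56 (SE, n = 5 and 5), a 100.3-fold rise with an adjusted p of 9.34e-08 in limma.

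A pair of probe-sets of Ighm, the µ heavy chain, rose from levels that were already high in naïve skin. Probe-set 1427351_s_at had log2 values of 8.62, 9.90, 10.97, 10.80 and 11.06 in naïve mice and 13.39, 12.07, 11.79, 13.98 and 13.40 in saline mice. The groups did not overlap, and the rise was 2.65 ± 0.47 (SE), 6.29-fold, with a limma adjusted p of 0.000229. Probe-set 1427329_a_at had 7.65, 9.37, 10.44, 9.78 and 10.50 in naïve mice and 12.02, 10.64, 10.30, 12.76 and 11.79 in saline mice. Here 1 saline mouse (replicate 13) lay within the naïve range, and the rise was 3.88-fold with an adjusted p of 0.00482. Naïve replicate 16 was the lowest naïve mouse on both, and without naïve replicates 16 and 17 the differences were 1.98 and 1.26 and both still passed.

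Another 4 Ighm probe-sets moved the opposite way. On 1425247_a_at the log2 values were 5.62, 7.02, 8.42, 8.61 and 8.89 in naïve mice and 2.79, 2.47, 2.27, 2.14 and 2.14 in saline mice, so that every saline mouse was near background. The fall was at least 26.2-fold (limma adjusted p 1.33e-06), with values under 3 raised to 3. On 1427869_at the naïve values of 5.22, 6.07, 7.49, 7.54 and 7.66 stood against saline values of 2.02 to 2.08, at least 13.9-fold lower (adjusted p 2.16e-06). Saline mice were thus at the floor of the array on a probe-set that was clearly above it in every naïve mouse. On 1425324_x_at the naïve values were 5.52, 6.85, 7.58, 7.66 and 7.62, and the saline values 3.94, 3.94, 3.96, 3.50 and 3.42, a 9.82-fold fall (adjusted p 1.39e-06). On 1427756_x_at, naïve values of 3.05 to 5.47 stood against 2.03 to 2.40 in saline mice, at least 3.12-fold lower (adjusted p 7.63e-06). None of the 4 overlapped between the groups, and all 4 still passed without naïve replicates 16 and 17.

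The remaining Ighm probe-sets carried little signal. On 1425385_a_at 18 of 20 mice lay at or below 2.28, on 1427870_x_at 1 naïve mouse reached 3.39 and all others lay below 3, and the 3 untested probe-sets (1426196_at, 1451949_at and 1452535_at) lay between 2.02 and 2.18 in all 20 mice. The suffixes _s_at and _x_at mark probe-sets whose probes also match other transcripts, and immunoglobulin genes share much sequence. An Ighm value from such a probe-set is therefore uncertain as to which immunoglobulin RNA gave it. The rising 1427329_a_at and the falling 1425247_a_at and 1427869_at carry neither suffix. Which transcripts the rising and the falling probe-sets match was not checked.

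**Figure D1:**
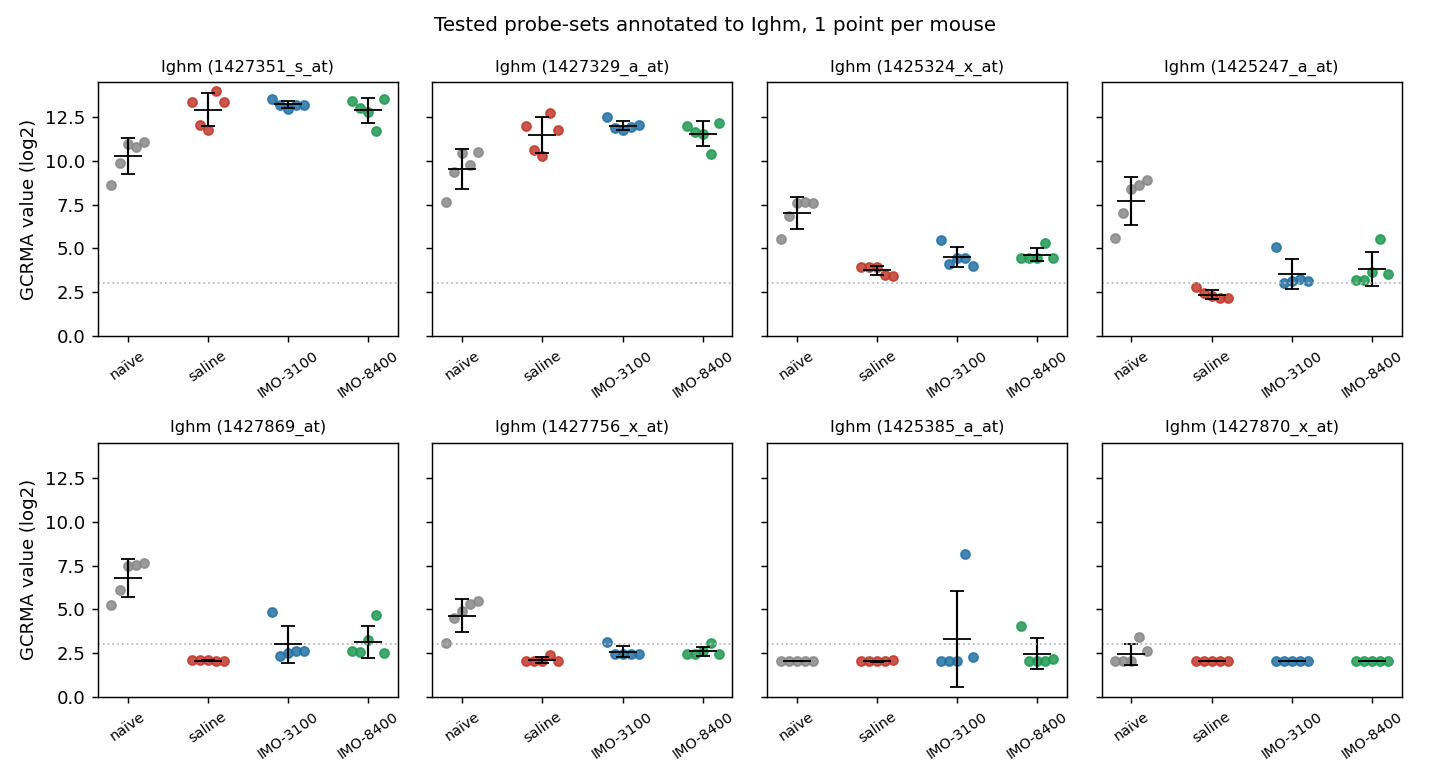
Log2 GCRMA values (y axis) of the 8 tested Ighm probe-sets in the 4 groups, 1 point for each mouse, with the group mean and SD as bars and a dotted line at 3. The panels 1427351_s_at and 1427329_a_at lie higher in the 3 IL-23-injected groups than in naïve mice, while 1425247_a_at, 1425324_x_at, 1427869_at and 1427756_x_at lie lower.

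Among individual mice, Ighm probe-sets that moved the same way varied together more closely than those that moved opposite ways. Deviations from the group means over the 20 mice, which share an array each, are given as a description. They correlated at 0.98 between the 2 rising probe-sets and at 0.83 to 0.97 among the 4 that fell. Between rising and falling probe-sets the correlations were lower but all positive, at 0.22 to 0.58. With the rising 1427351_s_at, Jchain correlated at 0.79, Bank1 at 0.81 and Cd79b at 0.71. The genes most like 1427351_s_at were Fgd2 (0.89), Igf1 (0.89) and Vwf (0.88). Within groups, deviations of the 4 falling probe-sets ran against those of the mean of the hair genes (r from -0.57 to -0.77). That mean varied mostly among naïve mice, from 3.51 in replicate 20 to 13.3 in replicate 16. Between groups the order was the reverse. Naïve mice had higher hair means than saline mice and also higher values on these 4 probe-sets. The part of the hair cycle in their fall was not tested. The genes most like 1425324_x_at in these deviations were Acadsb (0.86), the T cell gene Cd3g (0.85) and the glucocorticoid receptor Nr3c1 (0.84). Those most like Jchain were Mzb1 (0.86), a chaperone of IgM-secreting cells, Ptprm (0.86) and the λ light chain Iglv1 (0.85).

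Of the receptor genes, Cd79b, a signaling chain of the B cell receptor, had log2 values of 3.43, 4.82, 5.61, 3.43 and 6.63 in naïve mice and 9.24, 7.89, 7.78, 9.63 and 8.86 in saline mice. The groups stood clear of each other, and the rise was 3.90 ± 0.52 (SE), 14.9-fold, with a limma adjusted p of 1.57e-05. Its partner Cd79a, without which the receptor does not reach the surface, had no value above 2.33 in any of the 20 mice. The one Cd79a probe-set was thus near background in all groups and was not tested.

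Cd22 recruits phosphatases to the receptor. On 1419768_at the log2 values were 3.80, 4.16, 3.80, 3.80 and 4.59 in naïve mice and 7.96, 8.30, 7.67, 7.93 and 8.22 in saline mice. The rise was 3.99 ± 0.26 (SE), 15.9-fold, with a limma adjusted p of 4.81e-09. The second probe-set, 1419769_at, gave 2.02 in every naïve mouse and 5.51, 5.97, 5.11, 5.20 and 5.42 in saline mice, at least 5.44-fold higher (adjusted p 1.19e-06). Both Cd22 probe-sets thus separated the groups fully.

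The kinase Blk had log2 values of 4.08, 3.28, 5.31, 4.21 and 4.34 in naïve mice and 7.57, 6.70, 6.67, 7.80 and 6.67 in saline mice. It rose by 2.84 ± 0.31 (SE), 7.14-fold, with a limma adjusted p of 2.03e-06, and its groups did not overlap.

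Ms4a1 rose less evenly. On 1450912_at the log2 values were 2.29, 2.02, 2.19, 2.05 and 2.95 in naïve mice and 5.97, 2.92, 2.87, 7.05 and 4.93 in saline mice. Saline replicates 12 and 13 (2.92 and 2.87) were below the highest naïve mouse, while the other 3 saline mice were well above it. The difference was at least 3.45-fold (limma adjusted p 0.0057). On 1423226_at, saline values of 4.67, 2.55, 2.11, 3.96 and 3.52 stood against 2.02 to 2.29 in naïve mice, at least 1.55-fold (adjusted p 0.00947), and this call was lost when values under 3 were set to 3 (adjusted p 0.0636) or when saline replicate 11 was left out.

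Bank1 was the only tested gene of which no probe-set rose. Its log2 values were 2.48, 5.69, 6.78, 8.34 and 7.84 in naïve mice and 6.43, 3.78, 4.10, 6.34 and 5.19 in saline mice. The naïve mice were widely spread, with replicate 16, the mouse with the highest hair genes, at the bottom. The difference of -1.06 ± 0.82 (SE, limma adjusted p 0.305) became -1.99 without naïve replicate 16 (adjusted p 0.00934) and -2.48 without replicates 16 and 17 (adjusted p 0.0026), and then passed as a fall. Bank1 deviations correlated at -0.69 with those of the hair genes over the 20 mice, whose part in the result was not tested. The genes most like Bank1 were Clec4b1 (0.95), a lectin of dendritic cells, Igfbp6 (0.95) and Rgs18 (0.94).

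Pax5 lay at 2.02, the floor, on both of its probe-sets in all 20 mice. Of 22 surface and enzyme markers of B cells with a probe-set, 5 were below 3 in all 20 mice too, namely Fcer2a, Cr2, Vpreb3, Fcmr and Rag1. The homing receptor Cxcr5 was as well. Other markers on that list lay well above 3. Among them were Tnfrsf13c (means of 6.71 in naïve and 6.28 in saline mice), Cd37 (9.55 and 11.05) and Cd180 (8.01 and 10.20). Of the members that mark B cells, Cd79b, Cd22 and Blk were measured above background in all saline mice, Ms4a1 in 3 of 5, and Cd79a and Pax5 in no group.

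**Figure D2:**
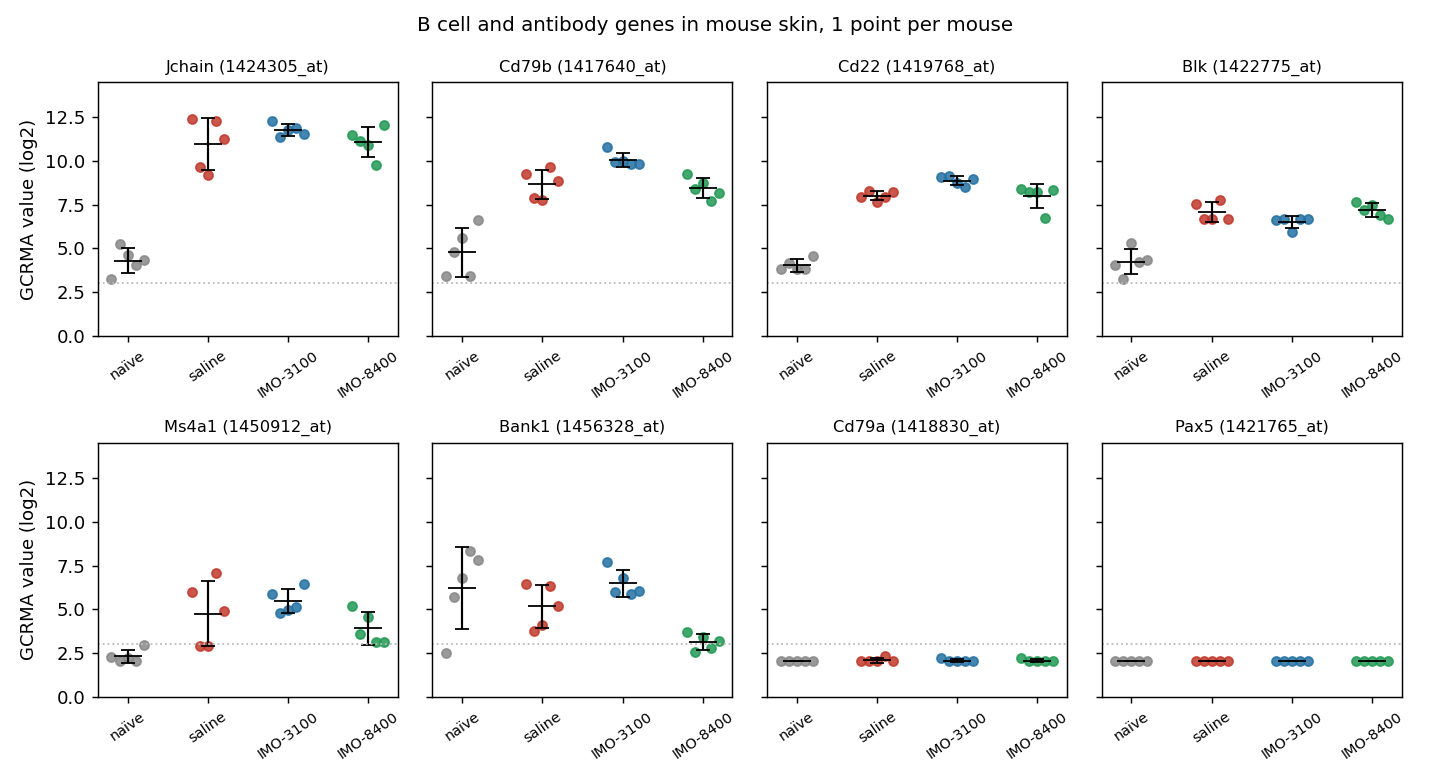
Log2 GCRMA values (y axis) of 8 members (all but Ighm, brightest probe-set of each) in naïve, saline, IMO-3100 and IMO-8400 mice, 1 point for each mouse, with the group mean and SD as bars and a dotted line at 3. Jchain, Cd79b, Cd22 and Blk lie above all naïve mice in the 15 IL-23-injected mice, Bank1 is lowest with IMO-8400, and Cd79a and Pax5 stay at or near 2.02.

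Genes around the members were read from lists of their pathway, with the brightest probe-set of each gene, except that all immunoglobulin probe-sets were kept. Of 20 other immunoglobulin probe-sets tested (14 more were below 3 in all mice), 10 rose and none fell in saline against naïve mice, with a median log2 difference of 2.58. The κ light chain probe-set 1427858_at of Igk-V21 rose by 7.21 ± 0.75 (SE, adjusted p 1.08e-06), from 2.02 to 3.28 in naïve mice to 7.99 to 11.93 in saline mice. Iglv1 rose at least 56.8-fold (1430523_s_at, adjusted p 0.000115) and Igkv9-120 by 6.27 on the log2 scale (adjusted p 2.27e-05). The heavy chain Ighg3, of the IgG3 class, rose by 4.28 ± 1.02 (adjusted p 0.00259), and Igha, of the IgA class, had differences of 0.83 to 1.30 on 3 probe-sets, none of which passed (adjusted p 0.062 to 0.148).

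Of 15 plasma cell genes, 4 rose and 1 fell. Mzb1, the chaperone that helps fold IgM, lay between 2.02 and 2.87 in naïve mice and between 6.58 and 11.04 in saline mice, at least 56.5-fold higher (limma adjusted p 2.16e-06). Fkbp11, a folding enzyme of secretory cells, rose by 1.66 (adjusted p 0.000138), the kinase Pim2 by 1.65 (adjusted p 6.75e-06) and the co-receptor Cd28, also a T cell marker, by 1.29 (adjusted p 0.00971). Irf4, a transcription factor of plasma cells, fell by 1.16 (adjusted p 0.0303). The other 10, among them the general secretory genes, did not pass.

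Of 14 transcription factors of B cells, 7 rose and 2 fell. The octamer coactivator Pou2af1 was at least 22.0-fold higher (adjusted p 5.41e-06), Ikzf3 rose by 5.01 ± 0.27 (adjusted p 7.85e-10), Pou2f2 (Oct-2) by 4.00 (adjusted p 7.23e-06) and Spib by 3.12 (adjusted p 1.37e-05). Bach2, a repressor of the plasma cell program, fell by 1.82 (adjusted p 6.12e-05). Of 19 genes of receptor signaling 9 rose and 1 fell, led by the adaptor Pik3ap1 (3.82, adjusted p 0.000321) and Vav1 (2.87, adjusted p 0.00044), and of 11 inhibitors of that signal 6 rose, led by Lair1 (4.98, adjusted p 8.96e-07). Of 16 survival and homing genes 10 rose, led by Il6 (at least 50.3-fold, adjusted p 7.85e-10) and Ccr7 (4.01, adjusted p 8.54e-06), and of 17 surface and enzyme markers of B cells 4 rose. Of 8 Fc receptor and transport genes 5 rose, led by Fcer1a (5.18, adjusted p 1.77e-06) and Fcgr4 (4.04, adjusted p 0.00013).

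Many genes on these lists are also used by myeloid or T cells, and markers of other cells moved in the same comparison. Of 14 T cell markers 11 rose, and their mean was 5.37 to 6.96 in naïve and 7.97 to 8.76 in saline mice. All 6 neutrophil markers tested rose, and 6 of 11 markers of plasmacytoid dendritic cells, a list that also holds Spib and Lair1, rose as well. Of the lymph node stroma markers, 3 of 6 on the array (Madcam1, Cr2 and Chst4) were below 3 in all 20 mice, and 1 of the other 3 rose. The part of these cells in the members' changes was not tested.

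No member passed the test against saline with either antagonist. With IMO-3100, 0 of 16 member probe-sets passed (4 at an unadjusted p under 0.05 in limma), against 6.42% of all tested probe-sets in either direction. With IMO-8400 it was also 0 of 16 (3 at an unadjusted p under 0.05), against 8.04% of all. The share of all tested probe-sets at an unadjusted p under 0.05 was not computed, so the 4 and 3 cannot be set against it. The median log2 difference over the 16 was 0.77 with IMO-3100 and 0.03 with IMO-8400, beside 0.01 in each comparison over all tested probe-sets. The 2 comparisons share the saline mice.

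Under IMO-3100 Cd79b and Cd22 lay above saline without passing both thresholds. Cd79b had log2 values of 10.78, 9.95, 9.99, 9.80 and 9.80, all above the highest saline mouse (9.63). The difference from saline was 1.39 (95% interval 0.28 to 2.49, limma adjusted p 0.058), and it passed without saline replicate 14 (adjusted p 0.0386). Cd22 on 1419768_at had 9.10, 9.12, 8.72, 8.49 and 8.95, again above every saline mouse. This difference of 0.86 (0.32 to 1.40) passed the FDR (adjusted p 0.0199) but, at 1.81-fold, not the FCH threshold. On the second Cd22 probe-set, 1419769_at, the groups overlapped and the difference was 0.79 (0.04 to 1.55, adjusted p 0.111). Jchain had 12.29, 11.39, 11.78, 11.89 and 11.54, within the saline range, with a difference of 0.82 (-0.35 to 2.00, adjusted p 0.299).

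The remaining members under IMO-3100 overlapped saline or stayed dim. Blk had 6.62, 6.67, 5.92, 6.68 and 6.67, a difference of -0.57 (-1.23 to 0.09, adjusted p 0.189). Ms4a1 on 1450912_at had 5.88, 4.81, 4.98, 5.15 and 6.47 (difference 0.71, adjusted p 0.463), while its second probe-set, 1423226_at, differed by -0.16 (limma adjusted p 0.818). Bank1 had 7.69, 5.97, 6.79, 5.89 and 6.04 (difference 1.31, -0.42 to 3.03, adjusted p 0.258). The rising Ighm probe-sets differed from saline by 0.31 (1427351_s_at, adjusted p 0.69) and 0.53 (1427329_a_at, adjusted p 0.488). The 95% intervals of these Ighm differences ran from -0.68 to 1.30 and from -0.55 to 1.60.

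Under IMO-8400 Cd79b, Cd22 and Jchain had means close to those of saline. Cd79b had log2 values of 9.24, 8.38, 8.77, 7.69 and 8.20, all but replicate 4 inside the saline range (7.78 to 9.63), with a difference of -0.22 (-1.32 to 0.88, limma adjusted p 0.8). Cd22 on 1419768_at had 8.40, 8.25, 8.22, 6.77 and 8.34, with replicate 4 below all saline mice and a difference of -0.02 (-0.56 to 0.52, adjusted p 0.981). On 1419769_at the Cd22 difference was -0.32 (-1.08 to 0.43, adjusted p 0.541). Jchain had 11.50, 11.14, 10.94, 9.76 and 12.05, a difference of 0.13 (-1.05 to 1.30, adjusted p 0.909). Replicate 4 of IMO-8400 was the lowest of its group for Cd22, Cd79b, Ms4a1 (1450912_at), Jchain and both rising Ighm probe-sets.

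Bank1 and Ms4a1 had lower means than saline under IMO-8400 but did not pass. Bank1 had 3.72, 2.55, 3.41, 2.79 and 3.20, below every saline mouse (3.78 to 6.43), a difference of -2.04 (-3.76 to -0.31, limma adjusted p 0.0725). Ms4a1 on 1450912_at had 5.18, 3.57, 4.54, 3.10 and 3.12, a difference of -0.85 (-2.22 to 0.53, adjusted p 0.358), and on 1423226_at it differed by -0.58 (adjusted p 0.259). Saline replicates 12 and 13 were the lowest of their group for Jchain, Ms4a1, Bank1 and the rising Ighm probe-sets alike.

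The 4 Ighm probe-sets that had fallen with IL-23 still passed as lower than in naïve skin under both antagonists. On 1427756_x_at the groups overlapped. Replicate 6 of IMO-3100 (3.12) and replicate 4 of IMO-8400 (3.07) lay above naïve replicate 16 (3.05). On 1425324_x_at the values were 5.46, 4.09, 4.47, 4.48 and 4.02 with IMO-3100 and 4.47, 4.48, 4.48, 5.32 and 4.48 with IMO-8400. Every antagonist-treated mouse was thus above the highest saline mouse (3.96), by a group difference of 0.75 (limma adjusted p 0.121) and 0.89 (adjusted p 0.0657). On 1425247_a_at, where all saline mice were near background, the treated groups were at least 1.45-fold (adjusted p 0.136) and at least 1.78-fold (adjusted p 0.0618) above saline, again with no overlap between the groups and without passing. Its values reached 5.08 in replicate 6 of IMO-3100 and 5.54 in replicate 4 of IMO-8400, against at most 3.66 in the other 8 treated mice. On 1427869_at both treated groups were at least 1.30-fold above saline (adjusted p 0.205 with IMO-3100 and 0.144 with IMO-8400). On 1427756_x_at they were at least 1.02-fold and 1.01-fold above it (adjusted p 0.31 and 0.27).

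**Figure D3:**
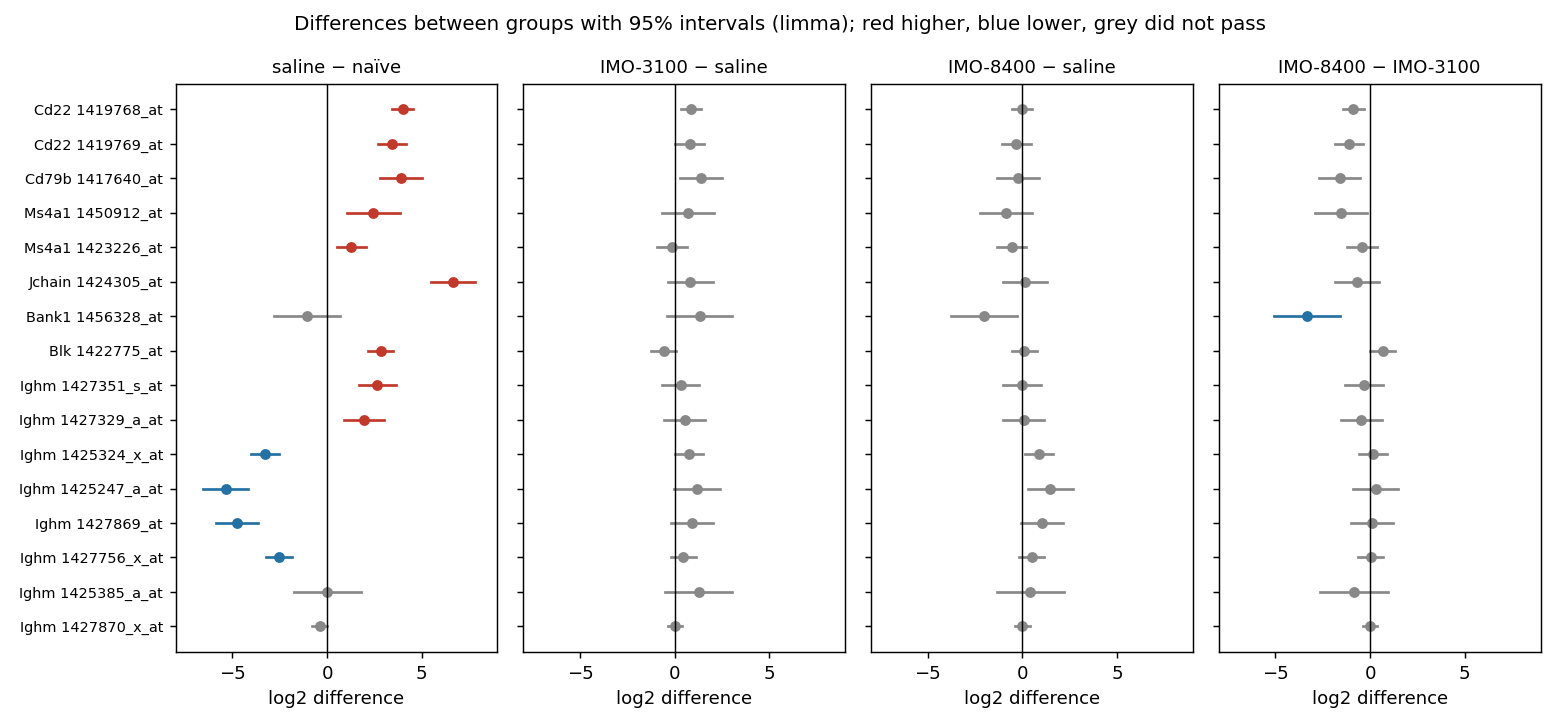
Log2 differences (x axis, points) with 95% intervals (lines) from limma for the 16 tested member probe-sets in 4 comparisons of 5 mice against 5, red where a probe-set rose, blue where it fell and grey where it did not pass. The saline against naïve panel holds 9 red and 4 blue points, the panels of the antagonists against saline hold none, and the last panel holds 1 blue point, Bank1.

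The lists around the members were read in the same comparisons. Of the 20 other immunoglobulin probe-sets, 2 rose and 1 fell with IMO-3100 and none passed with IMO-8400 (median differences 0.32 and 0.04). The 2 that rose were Ighv14-2 (1455530_at, by 2.56, limma adjusted p 0.0155) and Igkv19-93 (1427855_at, by 1.47, adjusted p 0.0297). Ighv14-2 had means of 6.19 in naïve and 5.62 in saline mice, and Igkv19-93 of 5.97 and 8.02. Igkv6-14 was at least 10.1-fold lower (1427860_at, adjusted p 0.0454) than a saline group in which 3 of 5 mice had a signal. In the plasma cell list, Fkbp11 fell by 1.86 with IMO-3100 (adjusted p 0.000233) and also fell with IMO-8400 (means 9.37 in saline and 7.37 with IMO-8400, adjusted p 0.000109). The receptor Tnfrsf17 (BCMA), which keeps plasma cells alive, rose by 2.69 with IMO-3100 (adjusted p 0.0241), from 2.95 to 6.41 in saline mice to 6.63 to 8.44. Naïve mice already had 3.34 to 8.52 on Tnfrsf17, with a mean of 6.23 against 4.65 in saline mice. Mzb1 stayed at 8.74 to 9.35 with IMO-3100 and 6.12 to 9.78 with IMO-8400.

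Of the B cell transcription factors, Pou2f2 rose by 1.49 (adjusted p 0.0337) and Ikzf3 fell by 1.22 (adjusted p 0.00354) with IMO-3100, and Bach2 rose by 1.15 with IMO-8400 (adjusted p 0.00609). Of 16 survival and homing genes, 5 fell with each antagonist. Il6, a growth factor for plasma cells, returned to near background, at least 50.3-fold lower with either (adjusted p 1.61e-09 and 2.14e-09). Ccr7, a homing receptor, had differences of -2.06 with IMO-3100 and -2.51 with IMO-8400 (adjusted p 0.00681 and 0.00169). Cxcl13, the chemokine that draws B cells, fell by 1.70 with IMO-8400 (adjusted p 0.0041).

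The T cell markers served as the nearest cell type for comparison. Of 14, 8 fell with IMO-3100 and 5 with IMO-8400, with median log2 differences of -1.08 and -0.73. Of the 16 member probe-sets 0 passed with each, and of the 8 beside Ighm also 0. These counts are not alike. The T cell list holds 1 probe-set a gene, and several Ighm probe-sets were near background in saline mice and could not show a fall. Cd8a, a chain of the CD8 co-receptor, had differences of -1.91 and -1.72 (limma adjusted p 0.00568 and 0.00975) and Cd6 was at least 3.03-fold lower with IMO-3100 (adjusted p 0.000443). Of 6 neutrophil markers 4 fell with IMO-3100 and 5 with IMO-8400. The difference between these lists and the members was not tested.

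**Figure D4:**
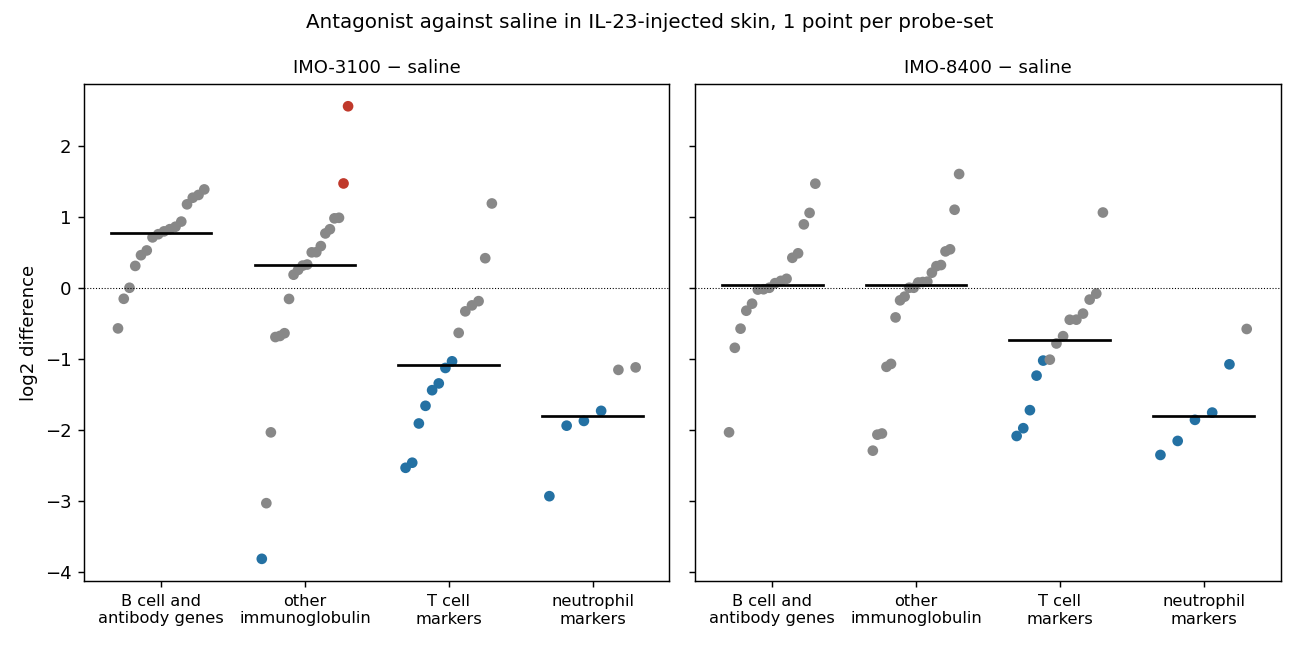
Log2 difference from saline (y axis) with IMO-3100 (left) and IMO-8400 (right), 1 point for each tested probe-set of the members, of the other immunoglobulin genes, of T cell markers and of neutrophil markers, with the list median as a line, red for a rise, blue for a fall and grey for no pass. The members and the other immunoglobulin genes have medians of 0.77 and 0.32 on the left and 0.03 and 0.04 on the right, while the T cell medians are -1.08 and -0.73. The member medians pool 8 Ighm probe-sets with 8 others, whose own medians are 0.64 and 0.81 on the left and 0.45 and -0.27 on the right.

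The 2 antagonists were given at the same dose and on the same days, as 1 pair of compounds. They are separate oligonucleotides, and IMO-8400 also blocks Toll-like receptor 8. An effect of that receptor and another effect of the compound cannot be told apart. Between the antagonists 1 of 16 member probe-sets passed, against 0.578% of all tested probe-sets in either direction. An unadjusted limma p under 0.05 was found for 6, both Cd22 probe-sets among them. The share of all tested probe-sets at that p was not computed, so the 6 cannot be read as an excess. Bank1 was lower with IMO-8400 (2.55 to 3.72) than with IMO-3100 (5.89 to 7.69), a difference of -3.34 ± 0.82 (SE, 95% interval -5.07 to -1.62) or 10.1-fold, with a limma adjusted p of 0.0329. The groups did not overlap, yet leaving out any one mouse of these 2 groups other than replicate 7 of IMO-3100 raised the adjusted p to between 0.0502 and 0.0868, with differences of -3.04 to -3.49.

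Other B cell genes leaned the same way without passing. Cd79b differed by -1.61 (IMO-8400 minus IMO-3100, interval -2.71 to -0.51, limma adjusted p 0.0872) and Cd22 on 1419768_at by -0.88 (-1.42 to -0.34, adjusted p 0.0614), both with no overlap between the groups. Cd22 on 1419769_at differed by -1.12 (-1.87 to -0.36, adjusted p 0.0841) and Ms4a1 on 1450912_at by -1.56 (-2.93 to -0.18, adjusted p 0.178). Blk leaned the other way, by 0.67 (0.01 to 1.33, adjusted p 0.225). For the antibody genes the differences were -0.70 in Jchain (-1.88 to 0.48, adjusted p 0.507), -0.33 in Ighm 1427351_s_at (-1.32 to 0.66, adjusted p 0.749) and -0.46 in Ighm 1427329_a_at (-1.53 to 0.61, adjusted p 0.657), intervals that do not exclude a 2-fold difference.

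Most tested member probe-sets still differed from naïve skin under both antagonists. With IMO-3100, 9 member probe-sets were higher and 4 lower than in naïve mice, against 4.9% and 4.55% of all tested probe-sets, and with IMO-8400 it was 7 higher and 5 lower, against 3.6% and 2.43%. Jchain was 178-fold higher than in naïve mice with IMO-3100 (limma adjusted p 7.86e-08) and 109-fold higher with IMO-8400 (adjusted p 3.66e-07). Cd79b was higher by 5.28 and 3.67 on the log2 scale (adjusted p 2.35e-06 and 0.000144) and Blk by 2.26 and 2.93 (adjusted p 6.63e-05 and 7.31e-06). The Ms4a1 probe-set 1450912_at was at least 5.49-fold higher with IMO-3100 (adjusted p 0.00194) and did not pass with IMO-8400 (adjusted p 0.0976). The other, 1423226_at, passed with IMO-3100 (at least 1.21-fold, adjusted p 0.0311) but not with values under 3 set to 3 (adjusted p 0.458) or without naïve replicate 17 (0.0575), naïve replicate 19 (0.0508), IMO-3100 replicate 10 (0.0923) or both naïve replicates 16 and 17 (0.0915). The fifth fall with IMO-8400 was Bank1, by 3.09 (adjusted p 0.0154). These comparisons share the naïve mice, and without naïve replicates 16 and 17 the counts were 8 higher and 4 lower with IMO-3100 and 6 higher and 5 lower with IMO-8400.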

How the data were processed

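RNA of full-thickness skin was hybridised to 1-colour Affymetrix arrays, 1 for each of 20 mice. The authors checked the images for defects (Harshlight) and array quality (arrayQualityMetrics), and deposited log2 values of GCRMA, which subtracts background by probe sequence, normalizes across arrays by quantiles and summarises the probes of each probe-set. For GCRMA no version is named in the sources used here. Arrays hold no read depth, so their number limits the precision. Labels gave the groups. No label says whether mice of a group shared a cage or day.

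Probe-sets were kept where the value was above 2 in at least 3 arrays and the SD above 0.1, which left 30960 of 45101. GEO's platform table gave 1 gene symbol for 34958 probe-sets, several for 932 and none for 9211, and names were taken only from the first kind. All 9 members matched RefSeq by Entrez ID with 0 changed symbols. The 4 group means were fitted to all 20 arrays with limma 3.58.1 in R 4.3.3 (lmFit and eBayes), p-values were adjusted by Benjamini-Hochberg over all tested probe-sets, and calls needed FDR under 0.05 and FCH over 2. The code was tested on simulated data. Where all 5 mice of a group were below 3, values were raised to 3 and the fold written as "at least". Figures were drawn with matplotlib 3.10.9.

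Every probe-set of every member was accounted for, and from each list up to 4 called genes with the largest change in a comparison were named. For likeness, the 3 genes with the highest Pearson r of deviations from the group means over 20 mice were taken. Members and lists were chosen with earlier results of these data known, so no test was run on a list. Alternatives were the common 75th percentile, quantile normalization, trend and robust eBayes, no filter, a stricter filter (above 4 in 5 arrays), values under 3 set to 3, only the 2 groups compared, 1 probe-set a gene, no FCH threshold, each mouse left out in turn, and naïve replicates 16 and 17 left out. Leaving out saline replicates 12 and 13 was added after the data were seen.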

Additional observations from a re-analysis of the deposited data

Results flagged for a closer look

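In groups of 5 mice, a mouse was picked out where its gap to the nearest value exceeded 0.71 of the range of the group (Dixon's 95% value). This held in 16 of 64 group and probe-set pairs, where chance alone gives about 1 in 20, and in 9 of the 16 the range was under 1 log2 unit. Probe-sets that lie at the floor in most mice give such gaps from small differences.

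Replicate 4 of IMO-8400 stood apart 4 times: low on Cd22 1419768_at (6.77, next 8.22) and high on the Ighm probe-sets 1425324_x_at (5.32), 1425247_a_at (5.54) and 1427756_x_at (3.07). Replicate 6 of IMO-3100 also stood apart 4 times, high on Cd79b (10.8, next 9.99) and on Ighm 1425247_a_at (5.08), 1427869_at (4.87) and 1427756_x_at (3.12). On the Ighm probe-set 1425385_a_at, replicate 9 of IMO-3100 had 8.17 and replicate 1 of IMO-8400 had 4.06 where the next mice had 2.28 and 2.16, and saline replicate 15 had 2.08. Ms4a1 stood apart in naïve replicate 20 (2.95 on 1450912_at and 2.29 on 1423226_at) and in IMO-3100 replicate 10 (4.26 on 1423226_at). Blk was low in IMO-3100 replicate 8 (5.92, next 6.62), and Ighm 1427756_x_at was highest in saline replicate 14 (2.40).

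The log2 effect on Bank1 differed between the antagonists by -3.34 (IMO-8400 minus IMO-3100, limma adjusted p 0.0329, the 5 IMO-8400 mice all below the 5 IMO-3100 mice).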

How the results depend on the processing

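The counts of member probe-sets that passed held within 1.5 times of 13, 13 and 12 in saline, IMO-3100 and IMO-8400 against naïve under every alternative run on them. Leaving out 1 mouse at a time gave 12 to 14, 12 to 13 and 12 to 12. With 1 probe-set a gene the median log2 differences were 2.84, 3.16 and 2.93 in place of 1.61, 1.77 and 1.15. Counts near 0 depended more on the setting. For IMO-3100 against saline the count of 0 became 1 with the common 75th percentile, 2 with only the 2 groups compared and 1 with no FCH threshold, and 0 to 1 with 1 mouse left out (Cd79b without saline replicate 14, adjusted p 0.0386, and Cd22 1419769_at without IMO-3100 replicate 8, adjusted p 0.0426). For IMO-8400 against saline it became 3 with only the 2 groups compared (Bank1, adjusted p 0.0111, and Ighm 1425247_a_at and 1427869_at) and 3 without saline replicates 12 and 13 (Bank1 and both Ms4a1 probe-sets, on which these mice had been seen to be the lowest of their group, so these falls follow from that choice), and stayed 0 to 0 with 1 mouse left out. For IMO-8400 against IMO-3100 the count of 1 became 2 with only the 2 groups compared (Cd79b, adjusted p 0.0119) and 0 to 1 with 1 mouse left out. The causes of these shifts were not tested, beyond the fewer mice in each fit. IMO-8400 against naïve lost Bank1 with only these 2 groups (adjusted p 0.0672) and Ighm 1427329_a_at without naïve replicates 16 and 17 (adjusted p 0.0669). No difference of a member changed sign after being called. Of single-probe-set results, 493 kept their side of the thresholds with 1 mouse left out, 4 passed newly and 13 were lost. Under the other settings these were 396, 12 and 5. No paired analysis was possible because the groups share no replicate numbers.

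A change of Cd79a, Pax5 or the dim Ighm probe-sets below the floor of the array was not detectable, and cross-hybridising probe-sets do not tell one immunoglobulin RNA from another.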
